A study of Mus musculus with 2 samples.

Results

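Chemokines are small secreted proteins that draw leukocytes along a gradient, and their receptors are G-protein-coupled receptors on the responding cells. CC chemokines such as Ccl2 mainly recruit monocytes, CXC chemokines of the Cxcr2 group recruit neutrophils, and others such as Cxcl12 and Cxcl13 position cells within tissues. Atypical receptors bind chemokines without the usual G-protein signal, and several of them take up and degrade their ligands. In the glomerulus, the capillary tuft that filters blood, podocytes, mesangial cells and endothelial cells can all make chemokines when injured.

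The genes described here are those whose array symbol begins with Ccl, Cxcl, Cxcr, Ccr, Xcl or Xcr followed by a digit, or with Cx3c or Ackr, together with Ccrl2. The rule found 87 probe sets of 55 genes, of 34945 probe sets and 18193 genes with 1 symbol on the array. Of the 55 genes, 33 encode ligands and 22 encode receptors, 5 of them atypical receptors when Ccrl2 is counted with the Ackr genes. A further 4 probe sets carry a matching symbol together with other symbols and are not used here.

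Glomeruli were isolated by sieving from kidneys of male C57BL/6J mice with floxed alleles of GC-A (the natriuretic peptide receptor encoded by Npr1) and of p38 (a stress-activated kinase, with no isoform named in the labels). The double knockout (called the knockout below) carried Nephrin-Cre(Cre/+), in which the nephrin promoter drives Cre in podocytes, the epithelial cells of the filter, and the floxed control (the control below) was Nephrin-Cre (+/+), read here as the absence of the Cre allele. Mice of both genotypes were 2 months old and were given, for 3 weeks, food with 6% NaCl and an aldosterone infusion (0.2 µg per kg and minute) from a minipump, so no array shows glomeruli without salt and aldosterone. There was 1 array per genotype, and how many mice it stands for is not stated in the labels. No difference below has a replicate check or a p-value, and higher and lower describe these arrays, as double knockout against floxed control.

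Signals are MAS5 intensities on a linear scale in arbitrary units. A signal under 52.7, the average of both arrays' 40th percentiles, was taken as not measured and raised to that floor before log2, so a fold against such a signal is a lower bound. Each gene is represented by its probe set of highest mean log2 signal, and levels are not compared between genes. The targeted gene Npr1 read 102 in the knockout and 167 in the control, and Mapk14, the gene of p38α, read 2607 in the knockout and 2628 in the control. Where these probe sets lie relative to the floxed exons is not given in the sources used here, so they do not check the deletion. The 3′ over 5′ signal ratio of Actb, a sign of RNA integrity, was 1.29 in the knockout and 1.36 in the control.

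Of the 55 genes, 36 were measured and 29 of these were above the floor on both arrays. Among the 36, 8 (22.2%) exceeded the floxed control at least 2-fold, namely Ccl2, Cxcl2, Cxcl5, Ackr2, Cxcl13, Ccl9, Ccr2 and Cxcl1. Over all 13290 measured genes the share was 3.53%. None of the 36 was at least 2-fold lower, where the share over all measured genes was 2.87%. With a 1.5-fold rule, 15 were higher and 1, Ccl27a, was lower, against 13.7% and 10% of all measured genes. The median log2 difference of the 36 was 0.34, or -0.40 after recentring on glomerular markers, against 0.07 and -0.67 over all measured genes. By sign, 25 of them (69.4%) were above 0 and 11 below, where 56.1% of all measured genes were above 0.

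The ligands covered a wider range of log2 differences than the receptors. A range widens with the number of genes, and more ligands than receptors were measured. The highest ligand value, that of Ccl2, is a bound that moves with the floor. Of 24 measured ligands, 6 were at least 2-fold higher, and their log2 differences ran from -0.61 to 3.40 with a median of 0.20, or -0.54 after that recentring. Of 12 measured receptors, 2 were at least 2-fold higher, and theirs ran from -0.39 to 1.51 with a median of 0.63, or -0.11 after it. By brightness, 6 of the 13 members whose brighter array read 200 to 1000 were at least 2-fold higher, where 4.24% of all genes in that band were. The count was 1 of 18 members below that band (3.44% of all genes there) and 1 of 5 above it (2.84%). All 6 higher members of the 200 to 1000 band read under 200 in the control and entered it through the knockout signal. The bands therefore depend on the difference being counted, for the members and for all genes.

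**Figure D1:**
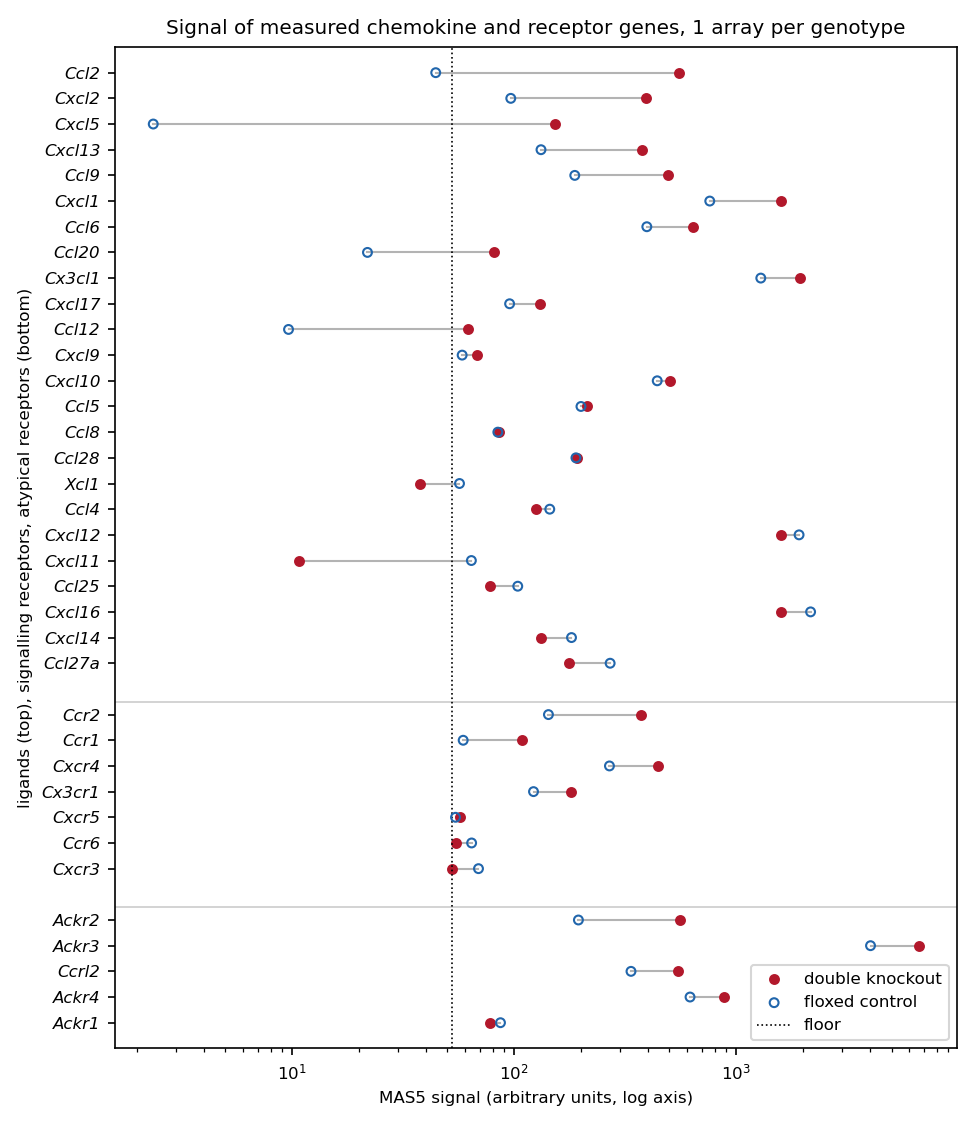
MAS5 signal (arbitrary units, log axis) of the 36 measured genes on the double knockout array (filled) and the floxed control array (open), 1 array per genotype, with ligands at the top, signalling receptors in the middle and atypical receptors at the bottom, each ordered by difference. The dotted line is the floor of 52.7, and the double knockout lies to the right for 25 of the 36 genes.

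These differences stood in arrays whose tissue markers also differed. Glomerular markers were measured and had positive median log2 differences, of 0.64 for 7 podocyte markers, 0.76 for 11 endothelial markers, 0.79 for 10 mesangial and mural markers and 0.91 for 8 parietal epithelial markers. Tubule markers had negative medians, of -0.78 for 10 proximal tubule markers and -0.91 for 9 markers of the loop, distal tubule and collecting duct. The summed signal was 71267 in the knockout and 51834 in the control for podocyte markers, and 103771 in the knockout and 154476 in the control for proximal tubule markers. In such bulk tissue, fewer cells of a type and less RNA per cell cannot be told apart. The part of these tissue markers in the chemokine differences was not tested beyond a shift of all genes. Recentring all differences on 36 markers of the 4 glomerular cell types subtracts 0.74 from every gene. It leaves Ccl2 at 2.65 and Cxcl2 at 1.28 on the log2 scale as the genes past 2-fold, and it puts 7 members at least 2-fold lower, namely Ccl25, Ccl27a, Cxcl11, Cxcl12, Cxcl14, Cxcl16 and Cxcr3. Those 7 are 19.4% of the 36 measured members, where the same recentring put 24.1% of all measured genes at least 2-fold lower and 0.384% at least 2-fold higher.

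**Figure D2:**
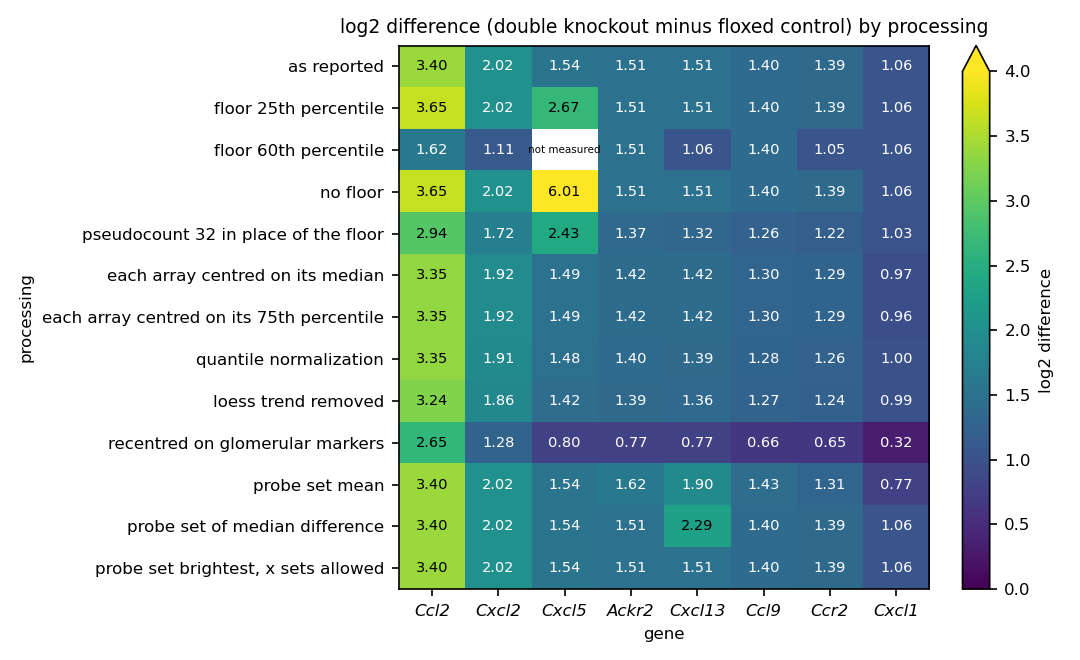
Log2 difference, double knockout minus floxed control, of the 8 genes past 2-fold (columns) under the processing reported here (top row) and under 12 alternatives (other rows), with the value in each cell and in the colour. Ccl2 and Cxcl2 stay above 1 in every row, recentring on glomerular markers gives the lowest value for Ackr2, Cxcl5, Cxcl13, Ccl9, Ccr2 and Cxcl1, and Cxcl5 is not measured with the floor at the 60th percentile. The high values of Ccl2 and Cxcl5 with a lower floor or none rest on control signals under the floor.

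Upstream sequence is shown for ligands of the Cxcr2 group, for Cxcl10, and for the higher genes Ccl9 and Ackr2, because all of these hold a match to a binding consensus of NF-κB, a transcription factor known to induce chemokine genes. RefSeq windows of GRCm38.p6 were found for 42 of the 55 genes, and the 250 bases before the transcription start were searched on both strands for the 10-letter NF-κB consensus and for the AP-1 consensus TGANTCA. Capitals mark the matches. Cxcl1 lies at chr5:90890995-90891244, Cxcl2 at chr5:90903649-90903898 and Cxcl3 at chr5:90785851-90786100, all on the plus strand. Cxcl10 lies at chr5:92348890-92349139 on the minus strand, Ccl9 at chr11:83578637-83578886 on the minus strand and Ackr2 at chr9:121898105-121898354 on the plus strand.
Cxcl1: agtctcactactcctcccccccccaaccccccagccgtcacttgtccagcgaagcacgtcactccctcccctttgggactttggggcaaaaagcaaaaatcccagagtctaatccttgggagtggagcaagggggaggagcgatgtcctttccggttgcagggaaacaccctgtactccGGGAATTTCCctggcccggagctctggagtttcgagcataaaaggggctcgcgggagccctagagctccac
Cxcl2: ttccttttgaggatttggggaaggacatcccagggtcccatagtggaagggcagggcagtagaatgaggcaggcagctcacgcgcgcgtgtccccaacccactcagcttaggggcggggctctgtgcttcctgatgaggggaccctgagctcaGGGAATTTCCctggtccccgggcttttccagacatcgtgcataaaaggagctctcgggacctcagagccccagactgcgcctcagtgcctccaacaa
Cxcl3: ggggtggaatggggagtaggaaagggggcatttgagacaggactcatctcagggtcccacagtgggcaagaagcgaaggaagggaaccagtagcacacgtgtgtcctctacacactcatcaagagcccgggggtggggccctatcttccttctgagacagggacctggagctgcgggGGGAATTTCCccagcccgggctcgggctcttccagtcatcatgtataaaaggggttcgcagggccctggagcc
Cxcl10: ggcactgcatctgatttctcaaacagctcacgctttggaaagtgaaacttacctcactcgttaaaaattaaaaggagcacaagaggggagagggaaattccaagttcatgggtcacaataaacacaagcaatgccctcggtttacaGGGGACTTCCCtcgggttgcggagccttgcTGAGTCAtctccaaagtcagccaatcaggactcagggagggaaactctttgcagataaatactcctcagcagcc
Ccl9: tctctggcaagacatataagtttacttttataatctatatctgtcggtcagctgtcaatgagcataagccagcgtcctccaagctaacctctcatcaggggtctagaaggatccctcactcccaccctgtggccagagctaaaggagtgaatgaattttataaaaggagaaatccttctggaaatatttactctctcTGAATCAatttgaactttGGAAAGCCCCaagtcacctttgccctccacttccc
Ackr2: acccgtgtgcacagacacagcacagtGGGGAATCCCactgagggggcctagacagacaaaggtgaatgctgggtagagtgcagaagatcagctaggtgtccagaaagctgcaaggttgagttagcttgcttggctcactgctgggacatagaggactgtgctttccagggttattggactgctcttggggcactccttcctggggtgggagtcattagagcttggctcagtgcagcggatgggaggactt
Cxcl1, Cxcl2 and Cxcl3 share the letters GGGAATTTCC, which begin 71, 97 and 73 bases before their starts. Cxcl10 holds overlapping NF-κB matches that begin 104 and 103 bases before its start, and an AP-1 match that begins 74 bases before it. Ccl9 holds an NF-κB match that begins 35 bases and an AP-1 match that begins 53 bases before its start, and the NF-κB match of Ackr2 begins 224 bases before its start.

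The NF-κB consensus was found in at least 1 window of 11 of the 42 genes (26.2%), and for 5.67% of the 27025 genes in the promoter table. Among the 6 genes past 2-fold with a window it was found for Cxcl1, Cxcl2, Ccl9 and Ackr2, and not for Cxcl13 or Ccr2. Among the 36 other genes with a window it was found for 7, namely Ccl1, Ccl20, Ccr3, Ccr6, Ccrl2, Cxcl3 and Cxcl10. Of those 7, Ccl1, Ccr3 and Cxcl3 were under the floor on both arrays, and Cxcl10 read 501 in the knockout and 440 in the control. The AP-1 consensus was found for 5 of the 42 genes (11.9%) and for 7.82% of all genes in the table. A match is a description of these letters and not a binding site, and matches were present both in genes past 2-fold and in genes within it. The 13 genes without a window used here were Ccl2, Ccl4, Ccl5, Ccl7, Ccl11, Ccl24, Cxcl5, Cxcl11, Cxcl16, Cxcl17, Ccr7, Ccr10 and Cxcr5.

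Ccl2 encodes the monocyte chemoattractant that binds Ccr2. It read 554 in the knockout and 44.3 in the control, where it was under the floor, so that it was at least 10.5-fold higher. Ccr2, the receptor that brings monocytes out of the bone marrow and into tissue, read 373 in the knockout and 143 in the control, or 2.62-fold higher. Of 13 listed ligand and receptor pairs measured on both sides, 1, Ccl2 with Ccr2, had both partners at least 2-fold higher. The list holds Ackr3 with Cxcl12 but no pair of Ackr2, so Ccl2 with Ackr2, described below, is not counted. Of the other 3 Ccr2 probe sets, 2 had log2 differences of 0.84 and 0.89, with 180 in the knockout against 97.3 in the control in the brighter of them. The third read 87.7 in the knockout against 19.9 in the control, which is under the floor, so that it was at least 1.67-fold higher. Ccl2 had no other probe set.

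The other ligands of Ccr2 were dim. Ccl12, a monocyte chemoattractant of mice, read 61.6 in the knockout and 9.63 in the control, a bound of at least 1.17-fold. Ccl7, which also binds Ccr2, read 48.3 in the knockout and 29.6 in the control, under the floor on both. In the RefSeq gene table Ccl2, Ccl7, Ccl11, Ccl12, Ccl8 and Ccl1 are consecutive protein-coding genes on chromosome 11. Of these 6, 3 were measured and 1, Ccl2, was past 2-fold. Ccl8 read 85.7 in the knockout and 84.3 in the control, and the eosinophil chemoattractant gene Ccl11 and the Ccr8 ligand gene Ccl1 were under the floor on both arrays.

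Ccr1, a receptor of monocytes and neutrophils, read 109 in the knockout and 58.9 in the control (1.84-fold higher), and its other probe set was under the floor on both arrays. Its mouse ligand gene Ccl9 read 494 in the knockout and 187 in the control, or 2.64-fold higher. The other Ccl9 probe set gave 256 in the knockout and 92.8 in the control, or 2.76-fold, so the gene was past 2-fold in both. Ccl6, a further mouse ligand of Ccr1, read 638 in the knockout and 395 in the control (1.61-fold higher), while its other probe set gave 283 in the knockout and 275 in the control. Ccl5, a ligand of Ccr1 and Ccr3 made by T cells among others, read 213 in the knockout and 200 in the control. Ccl3 was under the floor on both arrays, and Ccl4 read 125 in the knockout and 145 in the control. Ccl5, Ccl9, Ccl6, Ccl3 and Ccl4 are also consecutive on chromosome 11, and of these 5 genes Ccl9 was past 2-fold.

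The fractalkine pair was higher on both sides by less than 2-fold. Cx3cl1, a membrane-bound chemokine of endothelium and epithelium, read 1939 in the knockout and 1289 in the control (0.59 on the log2 scale). Its receptor gene Cx3cr1, a marker of monocytes and resident macrophages, read 180 in the knockout and 122 in the control (0.56 on the log2 scale). A second Cx3cl1 probe set gave a smaller difference, with 402 in the knockout and 350 in the control. Of the 6 receptor genes Cxcr6, Xcr1, Ccr1, Ccr1l1, Ccr3 and Ccr2, which are consecutive on chromosome 9, Ccr1 and Ccr2 were measured and the others were under the floor on both arrays.

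Macrophage and monocyte markers were higher on the same array as Ccr2, Ccr1 and Cx3cr1. All 17 measured markers, of 18 with a probe set, were above 0 and 4 were at least 2-fold higher, C1qc, C1qa, Fcgr3 and Aif1, where 3.53% of all measured genes were. The fold of Aif1 is a bound, since it read 49.1 in the control, under the floor. The median log2 difference of the 17 was 0.88. The summed signal of all 18 was 14912 in the knockout and 8330 in the control, and includes Cd163, which was under the floor on both arrays. The 8 dendritic cell markers had a median of 0.55, with a summed signal of 7250 in the knockout and 4847 in the control. Recentring on the glomerular markers, whose own medians were 0.64 to 0.91, leaves medians of 0.13 for the macrophage and monocyte markers and -0.19 for the dendritic cell markers. After it 12 of the 17 macrophage and monocyte markers were above 0 and none was at least 2-fold higher, where 0.384% of all measured genes were. The part of these markers in the receptor differences was not tested.

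Among the ligands of Cxcr2, which draw neutrophils, 3 were at least 2-fold higher and Cxcr2 itself was not measured. Cxcl2 read 391 in the knockout and 96.4 in the control, or 4.05-fold higher, in its 1 probe set. Cxcl5 read 153 in the knockout and 2.37 in the control, a bound of at least 2.90-fold. Cxcl1, which passed 2-fold under 6 of 12 alternative settings, had 1584 in the knockout and 759 in the control (2.09-fold higher) in the probe set that represents it. Its other probe sets gave 930 in the knockout against 670 in the control (1.39-fold) and 571 in the knockout against 501 in the control (1.14-fold). It was under 2-fold, at a log2 difference of 0.77, with the average of its probe sets without the cross-hybridising one, and at 0.97 after centring each array on its median.

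Cxcl3 read 30.9 in the knockout and 15.4 in the control, under the floor on both. Cxcr2 read 20.6 in the knockout and 22.8 in the control, so the receptor paired here with the higher neutrophil ligands was not measured. Cxcl5, Cxcl3, Cxcl15, Cxcl1 and Cxcl2 lie in 1 run on chromosome 5 that also holds the platelet chemokine genes Ppbp and Pf4. Of the 5 genes of that run with a probe set under the naming rule, 3 were measured, and these 3 were past 2-fold. The share over all measured genes was 3.53%. Cxcl5 counts as measured through the knockout alone, and Cxcl15, like Cxcl3, was under the floor on both arrays. Pf4, outside the rule, read 402 in the knockout and 243 in the control (1.66-fold higher). After recentring on glomerular markers Cxcl2 was the 1 gene of the 3 still past 2-fold. Neutrophil markers did not stand on the same side as the 3 higher ligands, since 1 of 9 measured markers was above 0 and their median was -0.27. The summed signal of all 10 with a probe set was 1354 in the knockout and 1980 in the control. It includes Camp, which was under the floor on both arrays. The granule markers Mpo and Elane were under the floor in the knockout, at 36.3 and 3.31, against 64.3 and 57.5 in the control. With the floor these are bounds of at least 1.22-fold and 1.09-fold lower. Mmp8, the 1 marker above 0, read 67.6 in the knockout and 52.1, just under the floor, in the control.

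**Figure D3:**
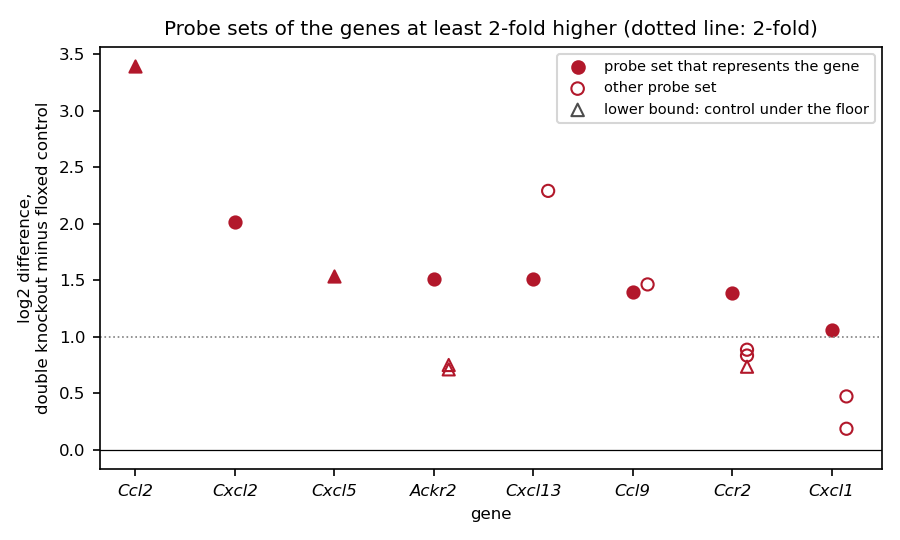
Log2 difference, double knockout minus floxed control, of each measured probe set of the 8 genes past 2-fold, with filled marks for the probe set that represents the gene, open marks for others, and triangles for lower bounds where the floxed control was under the floor. Of 9 other probe sets all lie above 0 and 2, those of Cxcl13 and Ccl9, lie above the dotted 2-fold line.

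Cxcl13, which attracts B cells through Cxcr5, read 376 in the knockout and 132 in the control, or 2.85-fold higher. Its second probe set gave 487 in the knockout and 99.5 in the control, or 4.90-fold. The receptor gene Cxcr5 read 56.7 in the knockout and 54.4 in the control, just above the floor. Of 12 lymphocyte markers with a probe set, 6 were measured, with a median log2 difference of 0.03 and a summed signal over all 12 of 688 in the knockout and 632 in the control. The genes of the T cell receptor complex Cd3d, Cd3e and Cd3g, with Cd4, Cd79a and Ncr1, were under the floor on both arrays. Ms4a1 and Cd79b, which like Cd79a mark B cells, were above it on both. Ms4a1 read 133 in the knockout and 109 in the control, and Cd79b read 109 in the knockout and 109 in the control.

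Of the interferon-inducible ligands of Cxcr3, a receptor of activated T and NK cells, none was past 2-fold. Cxcl10 was 1.14-fold higher by the values above, and Cxcl9 read 67.8 in the knockout and 58.3 in the control. Cxcl11 read 10.8 in the knockout, under the floor, and 64.1 in the control, and it passed 2-fold lower with the floor at the 25th percentile, without a floor or with a pseudocount. Cxcr3 read 52.5 in the knockout, just under the floor, and 69.0 in the control, a bound of at least 1.31-fold lower. Ccl20 read 80.8 in the knockout and 21.8 in the control, a bound of at least 1.54-fold higher, while its receptor gene Ccr6 read 54.9 in the knockout and 64.3 in the control.

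Cxcl12, a ligand that retains progenitor cells and guides vessel growth, and its receptors lay on opposite sides of 0. Cxcr4, the signalling receptor, read 443 in the knockout and 268 in the control (1.65-fold higher). Ackr3, the atypical receptor that takes up Cxcl12, read 6628 in the knockout and 4021 in the control (1.65-fold higher). Cxcl12 read 1593 in the knockout and 1917 in the control (1.20-fold lower) in the probe set that represents it. A second Cxcl12 probe set pointed the other way, with 1251 in the knockout and 962 in the control, so its direction is unsettled.

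The atypical receptors included 1 gene past 2-fold. Ackr2, which internalises and degrades inflammatory CC chemokines including Ccl2, read 555 in the knockout and 194 in the control, or 2.85-fold higher. Its other 2 probe sets read 88.6 and 86.3 in the knockout, against 41.5 and 4.54 in the control, with bounds of at least 1.68-fold and 1.64-fold. Ackr4, a scavenger of Ccl19, Ccl21 and Ccl25, read 876 in the knockout and 619 in the control (1.42-fold higher). Ccrl2, which binds the chemoattractant chemerin without signalling, read 546 in the knockout and 335 in the control (1.63-fold higher). Ackr1, a chemokine-binding protein of venules and red cells, read 77.7 in the knockout and 86.7 in the control. The median log2 difference, before recentring, was 0.70 over these 5 genes and 0.56 over the 7 measured signalling receptors.

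**Figure D4:**
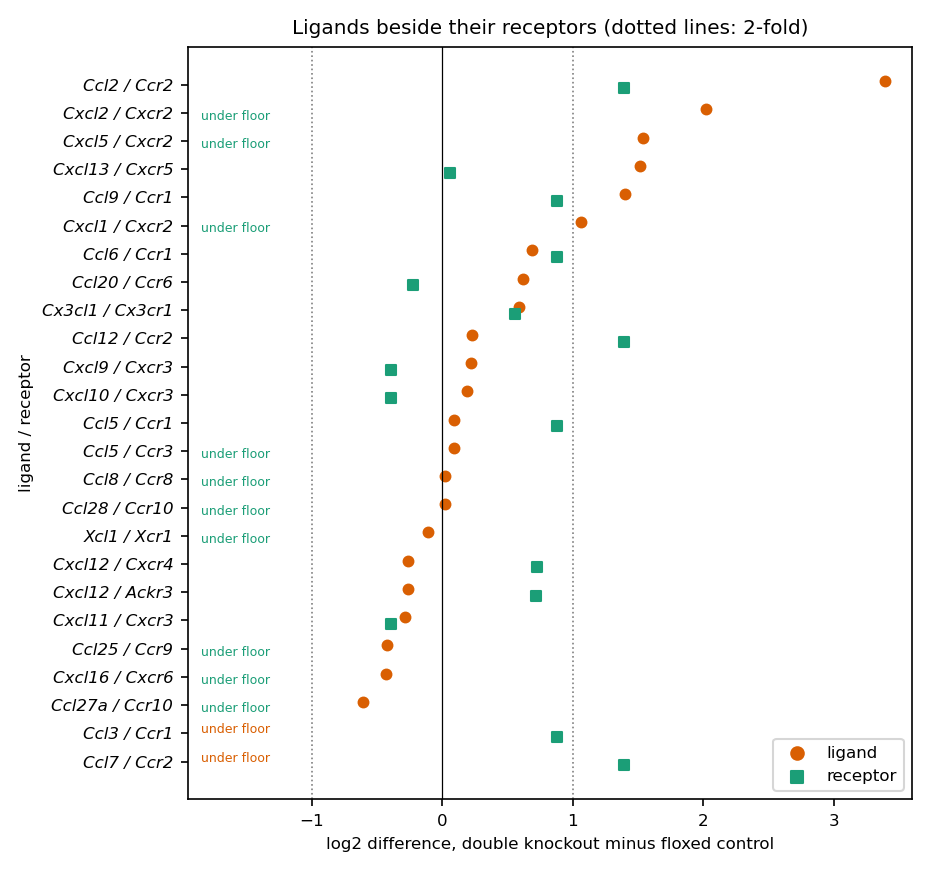
Log2 difference, double knockout minus floxed control, of each ligand (circle) beside its receptor (square) for pairs with at least 1 measured partner, ordered by the ligand, with partners not measured marked as under floor. Ccl2 and Ccr2 are the pair in which both partners lie right of the 2-fold line, and Cxcl2, Cxcl5 and Cxcl1 stand beside a receptor under the floor. Values of Ccl2, Cxcl5, Ccl20, Ccl12, Xcl1, Cxcl11 and Cxcr3 are bounds.

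The pair list held signalling receptors and, of the atypical receptors, Ackr3 with Cxcl12, so ligands of the other atypical receptors are not paired with them. There were 31 listed pairs with a probe set for each partner, and 13 of them had both measured. In 7 of the 13 both partners were above 0, in 1 both were below, and in 5 they lay on opposite sides. Of those 5, 2 have Cxcl12 as the ligand, whose probe sets differ in sign. These counts move with the centring: recentred on the glomerular markers, both partners were above 0 in 2 pairs, Ccl2 with Ccr2 and Ccl9 with Ccr1, both were below in 7, and 4 lay on opposite sides. In 10 pairs the ligand was measured and the receptor was under the floor, and in 2, Ccl3 with Ccr1 and Ccl7 with Ccr2, the reverse held. In 6 pairs neither partner was measured, so nothing can be said of them at these signals. Several pairs share a receptor, and they are not independent of each other.

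The remaining measured ligands were within 2-fold and mostly lower. Cxcl16, a membrane-bound chemokine and scavenger of oxidised lipoprotein, read 1597 in the knockout and 2160 in the control, and its second probe set gave 1184 in the knockout and 1385 in the control. Its receptor gene Cxcr6 was under the floor on both arrays. Ccl27a, a chemokine of epithelia, read 177 in the knockout and 270 in the control (1.52-fold lower). That value is uncertain, because its 1 probe set is of a cross-hybridising kind and the genome holds near-identical copies of the gene. The gut chemokine gene Ccl25 read 77.4 in the knockout and 104 in the control. Cxcl14, an epithelial chemokine, read 132 in the knockout and 181 in the control, while its second probe set gave 74.1 in the knockout and 41.7, under the floor, in the control. Ccl28, a mucosal chemokine, read 192 in the knockout and 190 in the control, Cxcl17 read 131 in the knockout and 95.3 in the control, and Xcl1 read 37.6 in the knockout, under the floor, and 56.7 in the control.

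The 19 genes under the floor on both arrays were 9 ligand genes and 10 receptor genes. The ligands were Ccl1, Ccl3, Ccl7, Ccl11, Ccl17, Ccl22, Ccl24, Cxcl3 and Cxcl15, and the receptors were Ccr1l1, Ccr3, Ccr4, Ccr7, Ccr8, Ccr9, Ccr10, Cxcr2, Cxcr6 and Xcr1. They include the Th2-associated ligands Ccl17 and Ccl22 with their receptor gene Ccr4, and Ccr7, which guides dendritic cells to lymph nodes. No direction is given for them.

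Genes that act before and after chemokines were read from 5 lists. Of 22 measured transcriptional regulators of chemokine induction, 2 were at least 2-fold higher and none lower, with a median log2 difference of 0.47. Nfkbie, an inhibitor of NF-κB, read 860 in the knockout and 326 in the control (2.63-fold higher), and Nfkb2, an NF-κB subunit, read 387 in the knockout and 182 in the control (2.12-fold higher). Cebpd was 1.99-fold higher. Of 15 measured inducing cytokines and receptors, 1 was at least 2-fold higher, Tlr4, a receptor for bacterial lipopolysaccharide, with 697 in the knockout and 253 in the control (2.76-fold). Their median was 0.46, Tlr2 was 1.95-fold and Ifngr1 1.88-fold higher, and the cytokine genes Tnf, Il1a, Il17a and Ifng were under the floor on both arrays.

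None of 25 measured genes of receptor signalling was past 2-fold, and their median was 0.32. The β-arrestin gene Arrb1 was 1.95-fold higher, and the G-protein regulators Rgs19 and Rgs2 were each 1.79-fold higher. Of 18 measured genes that hold chemokines on cell surfaces or cleave them, 3 were at least 2-fold higher and 1 lower, with a median of 0.40. Mmp2, a protease that can clip chemokines, read 1398 in the knockout and 268 in the control (5.21-fold higher). The macrophage protease gene Mmp12 was at least 2.63-fold higher, and Mmp9, a protease stored in neutrophil granules, was at least 2.49-fold lower. Of 11 measured chemoattractants and receptors outside the chemokine names, the median was 0.59 and 1 was at least 2-fold higher, Cd74, a receptor for Mif, with 5082 in the knockout and 2539 in the control (2.00-fold). Il34, a macrophage growth factor, was 1.85-fold higher and Pf4, a platelet chemokine, 1.66-fold higher. Each list median lay above the 0.07 of all measured genes and below the 0.74 of the glomerular markers. After recentring on those markers the 5 medians were, in the order given, -0.28, -0.29, -0.42, -0.34 and -0.15, against -0.67 over all measured genes. The recentred list of genes that hold or cleave chemokines had 1 gene at least 2-fold higher and 2 lower. Each other list had none higher and 1 lower. Over all measured genes the recentred shares were 0.384% higher and 24.1% lower.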

How the data were processed

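Values were MAS5 signal intensities per probe set on a linear scale, as deposited and per the submitters' processing notes, which give no version. The deposited arrays had the same mean (500.0) after trimming 2% at each end, and no rescaling was applied. With 2 arrays, 1 per genotype, their number limits the precision and no test was possible. The 64 control probe sets were left out. Genes were named from GEO's platform annotation, and all 55 member genes matched the RefSeq table of GRCm38.p6. The brightest probe set, without cross-hybridising sets (_x_at) where another existed, represented each gene, and signals under the floor of 52.7 were raised to it before log2. Every measured member is described, and of each pathway list up to 3 genes with the largest difference. Members, lists and alternatives were chosen with earlier results of these data known. Alternatives changed the floor, scaling, probe set and size rule. A planned comparison of protein sequences was not made, since none were used here. Upstream windows came from RefSeq. Steps were tested on simulated signals, with Python 3.11.15, pandas 2.3.3 and statsmodels 0.14.6.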

Additional observations from a re-analysis of the deposited data

How the results depend on the processing

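The count of 8 genes at least 2-fold higher was 7 to 10 under all other floors, scalings and probe set choices except recentring on glomerular markers, where it was 2 (with 0.384% of all measured genes past the same limit), and it was 15 with a 1.5-fold rule and 2 with a 3-fold rule. The count of genes at least 2-fold lower, 0 as reported, was 3 with a floor at the 25th percentile, 1 with no floor, 1 with a pseudocount of 32, 7 after recentring, which puts 24.1% of all measured genes there, and 1 with the 1.5-fold rule. Where the first count was 10, Ccl12 and Ccl20 were added. Without a floor the lower gene was Cxcl11, whose double knockout signal is under the floor. Recentring turned the medians of the members, the ligands and the receptors to -0.40, -0.54 and -0.11. No other alternative turned a median or moved it by 1.5-fold. Cxcl1 passed 2-fold in 6 of 12 alternatives, Ccl2 and Cxcl2 in all 12. Cxcl5 gave no value with the floor at the 60th percentile. Allowing any base at the sixth position of the NF-κB consensus, chosen after seeing the data, gave 12 genes with a match in place of 11. No paired analysis was possible because each genotype had 1 array.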
